A study of Mus musculus with 4 samples.

Results

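The BCL2 family genes Mcl1, Bcl2, Bcl2l1, Bcl2l2, Bcl2l11, Bak1, Bax, Bid, Bad and Bbc3 were examined in fibroblasts cultured from mouse embryos (MEFs), with and without added mTert. The members were every probe set whose platform annotation gives exactly 1 symbol among these 10 genes. They came to 27 of the 22626 probe sets that are not controls and covered 9 of the 10 genes, since the annotation used here lists no probe set for Bax, which was not analysed here. The samples, 2 mTert and 2 control, were each measured on 1 MOE430A array from Affymetrix. The mTert samples carried the retroviral vector pBabePuro, which confers puromycin resistance, with the catalytic subunit of mouse telomerase. The control samples carried the same vector empty, so puromycin resistance and retroviral transduction were common to all 4 samples. The labels give no strain, embryo age, passage or day of harvest, and nothing in them says whether samples of a group came from separate cultures. The p-values thus rest on the spread among these samples alone, and that spread may be technical.

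Proteins of the BCL2 family decide whether the outer membrane of the mitochondrion stays sealed. Guards such as MCL1, BCL2, BCL-XL and BCL-W hold the pore-forming effectors BAK and BAX in check, and BH3-only proteins such as BIM, PUMA, BID and BAD bind the guards or act on the effectors directly. Once the membrane opens, cytochrome c escapes and caspases are activated. MCL1 has a short-lived protein and transcript, so its amount follows growth factor and stress signals quickly. The arrays measure transcripts alone, and much of the control of this family acts on the proteins.

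Mcl1 had the smallest p of the members. All 6 of its probe sets were lower in both mTert arrays than in both control arrays, the brightest at 0.757 times its control signal. Among the pro-death genes the effector Bak1 was lower in both mTert arrays, while the BH3-only genes Bbc3 and Bid were higher in both. Bcl2l11, also BH3-only, gave no single direction. Its brightest probe set was lower in both mTert arrays, and 2 of its others were higher in both. Groups did not overlap, with mTert lower, for 12.1% of all probe sets tested (13.4% with mTert higher, 25.5% in all), so a single probe set without overlap is common on these arrays. Bcl2l1 and Bcl2l2 overlapped between the groups, and Bcl2 and Bad were called absent on all arrays. In limma, over all 12396 probe sets tested, 0 of the 16 tested member probe sets passed an adjusted p of 0.05, against 0% of all probe sets. At an unadjusted p under 0.05, 4 member probe sets passed in the fit without a replicate term, all of Mcl1, against 2.1% of all probe sets.

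The promoters of Mcl1 and Bak1, the members with the most negative differences, are shown so that a reader can see the sequence next to the gene start. They are the 250 bases before the RefSeq start in build GRCm38.p6, at chr3:95658471-95658720 on the plus strand for Mcl1 and at chr17:27028628-27028877 on the minus strand for Bak1. Capitals mark matches to the motifs searched, which here are 2 ETS cores, CGGAAG, and 1 GC box, GGGCGG on the opposite strand, all in Mcl1.
Mcl1: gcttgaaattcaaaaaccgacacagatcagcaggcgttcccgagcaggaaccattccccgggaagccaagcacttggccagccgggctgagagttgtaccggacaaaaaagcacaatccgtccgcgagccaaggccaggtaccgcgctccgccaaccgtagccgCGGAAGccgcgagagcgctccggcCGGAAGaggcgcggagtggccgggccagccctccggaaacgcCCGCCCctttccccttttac
Bak1: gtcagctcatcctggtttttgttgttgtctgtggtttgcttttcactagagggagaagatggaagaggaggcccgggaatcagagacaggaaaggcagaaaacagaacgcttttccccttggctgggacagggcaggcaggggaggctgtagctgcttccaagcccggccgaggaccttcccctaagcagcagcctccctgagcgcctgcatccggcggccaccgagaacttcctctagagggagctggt
The motifs were searched on both strands in the same window of all 32851 RefSeq starts, and 13.6% held an ETS core and 32.7% a GC box. Of the 16 RefSeq starts of the 10 member genes, some of which share a gene, 4 held an ETS core (1 each of Mcl1, Bcl2l1, Bcl2l11 and Bad) and 11 a GC box. The ETS cores of Mcl1 lay 86 to 81 and 62 to 57 bases before the start. Neither promoter held a CArG box, the site of serum response factor (1.47% of all promoters), a cyclic AMP response element TGACGTCA (1.55%), an AP-1 site TGANTCA (6.75%), an E-box CACGTG (6.02%) or a STAT site TTCNNNGAA (7.02%). Some of these motifs can overlap, as the cyclic AMP response element holds the shorter core TGACG, which was in 17.8% of promoters and in neither of these. A match describes letters in this window and is not a binding site.

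The labels were checked on Tert, which was called present in the mTert arrays with signals of 1165 and 845 and absent in the controls with 128 and 85 (scaled arbitrary units). With controls not above background, the ratio of geometric means is a lower bound, at least 9.53-fold higher in mTert (limma adjusted p = 0.188). In this fit, which has no replicate term, the smallest limma adjusted p of any probe set tested was also 0.188. Even the added gene thus did not pass the threshold there. With a replicate term for sample number, 18 of all probe sets tested passed in limma. Between 51.6% and 54.4% of probe sets were called present on each array. By the instrument records, the labelled cRNA was 15 µg for each mTert array and for control 2, and 5 µg for control 1. All 10 fibroblast markers measured were present on all 4 arrays, with summed signals of 82770 to 87169 in mTert and 86936 to 90514 in control. Of 5 epithelial markers, Epcam, Krt8, Krt18 and Krt19 were absent on every array, and of 5 endothelial ones Pecam1, Cdh5 and Vwf were. Macrophage markers differed more by sample number than by group. Their summed signal over 10 genes was 3172 in mTert 1 and 11461 in mTert 2, against 2910 in control 1 and 11189 in control 2, with 6 genes present on each array numbered 1 and 10 on each numbered 2.

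The detection calls decided which members could be compared, as the map of calls shows. A probe set was tested if it was called present on at least 2 of the 4 arrays, whatever their group. Of the 27 member probe sets 16 passed, for 7 genes, and 15 of these were present on all 4 arrays. The other 11 were absent on every array. They are given by their signals, with no fold, since a signal that is not above background is only an upper bound. All 6 probe sets of Mcl1 and all 5 of Bcl2l11 were tested, against 1 of 4 for Bcl2l1, 1 of 4 for Bcl2l2, 1 of 2 for Bak1, 1 of 2 for Bid, the single one of Bbc3 and none of those for Bcl2 and Bad.

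**Figure D1:**
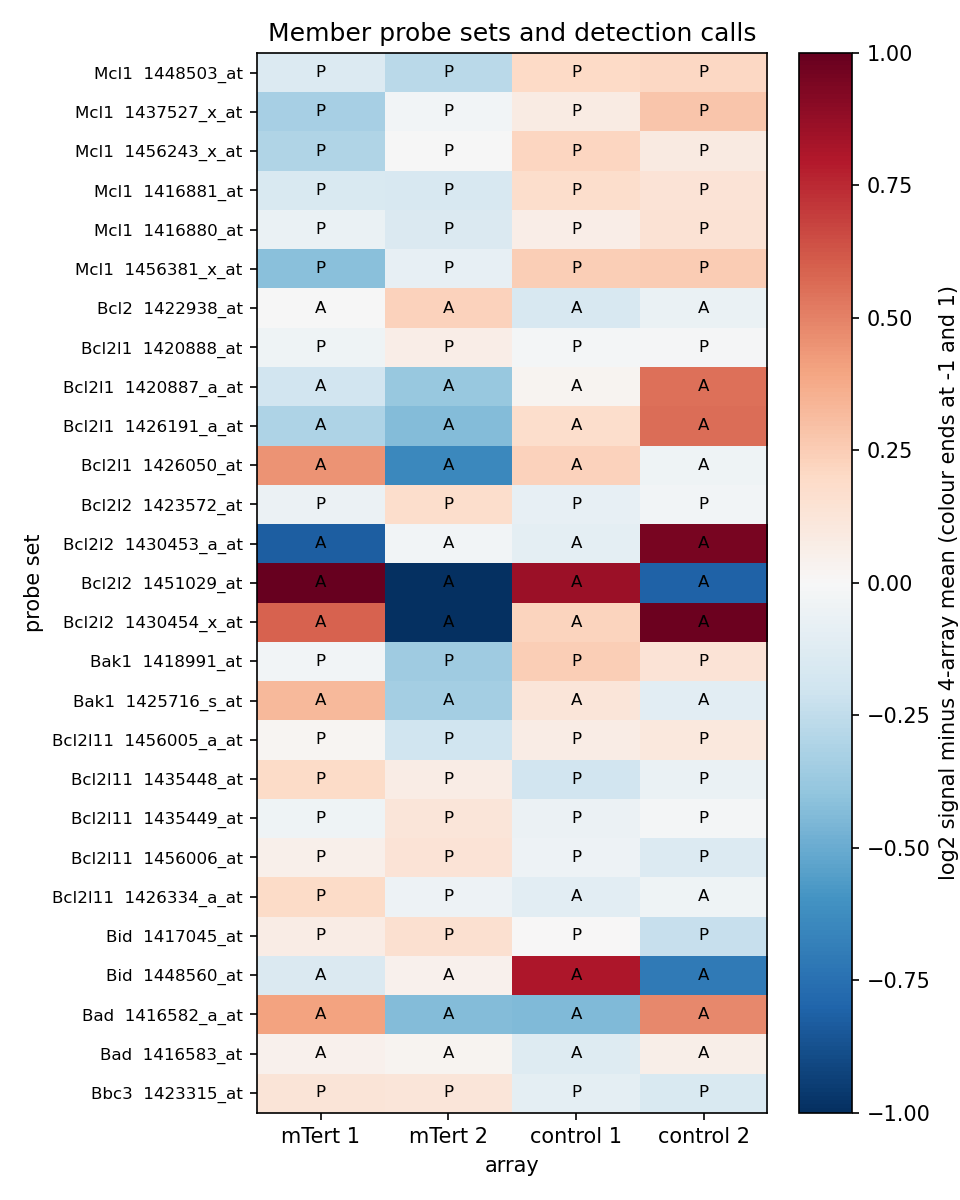
Log2 signal of each of the 27 member probe sets (rows) on each array (columns, mTert left of control), minus the probe set's mean over the 4 arrays, as colour, with the detection call printed as P for present or A for absent. The 6 rows of Mcl1 are present throughout, blue or near white in mTert and on the red, higher side in control.

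Mcl1 encodes the guard that holds BAK in check and is required for the survival of many cell types. Its brightest probe set, 1448503_at, had signals of 4278 and 3911 in mTert 1 and 2, against 5388 and 5425 in control 1 and 2. The means were 4094 ± 259 in mTert and 5406 ± 26.2 in control (SD, n = 2 each). The mTert arrays lay clearly below the controls, and the gap between the groups was wider than the spread within either. The log2 difference was -0.40 (SE 0.09, 95% interval -0.61 to -0.19), with an unadjusted limma p of 0.0031 and an adjusted p of 1.00. In the limma fit with a replicate block, the unadjusted p was 0.0003 and the adjusted p 0.134.

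The other Mcl1 probe sets gave the same order of groups. Probe set 1416881_at had 1590 and 1579 in mTert and 1999.8 and 1946 in control, a log2 difference of -0.32 (SE 0.10). Probe set 1416880_at had 1620.3 and 1531 in mTert and 1777 and 1878 in control, at -0.21 (SE 0.11). It showed the smallest difference, and its interval of -0.47 to 0.04 included 0. The remaining 3 probe sets carry the suffix _x_at, by which Affymetrix marks sets whose probes may also match other transcripts. Of these, 1456381_x_at had 461.3 and 583.1 in mTert and 734.8 and 737.9 in control, at -0.51 (SE 0.16). Probe set 1437527_x_at had 2280.2 and 2823 in mTert and 3048 and 3490.2 in control, at -0.36 (SE 0.14). Probe set 1456243_x_at had 1523 and 1864 in mTert and 2171 and 1993 in control, at -0.30 (SE 0.13). The interval of 1456243_x_at, -0.63 to 0.02, also included 0. In these 3 sets mTert 1 was the lowest array, whereas in the 3 sets without the suffix mTert 2 was. Without mTert 1 the 3 _x_at sets, in the order above, stood at -0.34, -0.21 and -0.16.

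Over the 6 probe sets, which share a gene and are not replicates, the mean log2 difference was -0.35. Relative to the mean of the 4 arrays, their average log2 signal was -0.24 in mTert 1 and -0.12 in mTert 2, against 0.16 in control 1 and 0.19 in control 2. In bulk RNA, fewer cells with the transcript and less of it per cell cannot be told apart. All 6 were lower in mTert in each of the 4 pairings of an mTert with a control array. Of the 892 genes with at least 3 tested probe sets, 7 had all of them lower in mTert without overlap, or 0.785%, and 1 had all of them higher, or 0.112%. The 7, named after their values were seen, were Mcl1 with 6 probe sets, Klf9 with 5, and Bcl10, Cdc73, Eftud2, Nr2f2 and Rian with 3 each. Without control 1, the array with less cRNA, the log2 difference of 1448503_at was -0.41. The 6 probe sets then ran from -0.51 for 1456381_x_at to -0.24 for 1456243_x_at. A single value per array cannot pass an exact permutation test here, since the smallest two-sided p that 2 against 2 arrays can give is 0.333.

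**Figure D2:**
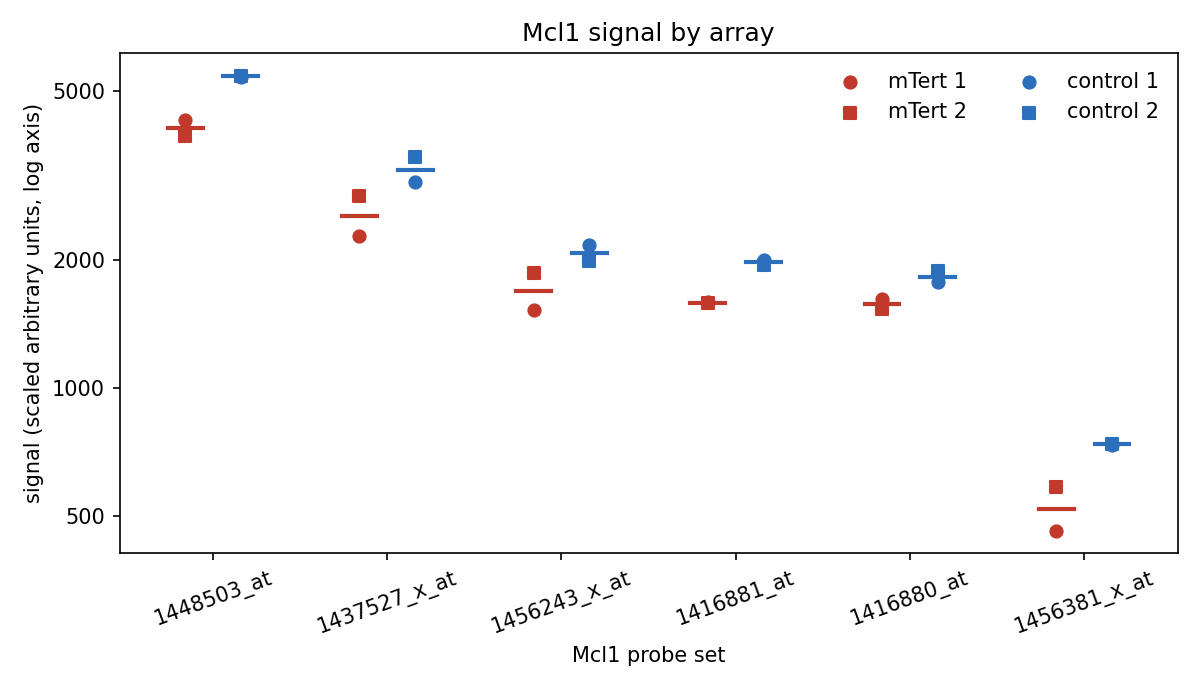
Signal of the 6 Mcl1 probe sets (log axis, scaled arbitrary units) on each array, with mTert left of control in each pair and a bar at the geometric mean of 2 arrays. Circles are samples numbered 1 and squares those numbered 2, and in every pair both mTert points lie below both control points.

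The genes whose pattern over the 4 arrays lay nearest to that of 1448503_at, the brightest Mcl1 probe set, were then sought. The measure was the Euclidean distance between log2 signals centred on the 4-array mean, over 11262 probe sets of other genes. The nearest were Cd99l2 at a distance of 0.043, Fcgr4 at 0.053, Hes1 at 0.055, Ier2 at 0.057 and Stmn3 at 0.064. In all, 19 of these probe sets lay closer than 0.1. The distance from 1448503_at to the other Mcl1 probe sets ran from 0.126 to 0.346. The 5 genes were picked as the nearest of 11262 probe sets, so their smaller distances come from the search. Hes1, a repressor downstream of Notch, had 3145 and 2840.1 in mTert and 4117 and 4001 in control. Ier2, an immediate-early gene, had 4374 and 3957 in mTert and 5639 and 5771 in control. Of the other 3 tested probe sets of Cd99l2, 1 stood on the opposite side, at 0.28. A likeness over 4 arrays is a description of these arrays.

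The other guards had overlapping signals or none above background. Bcl2l1 encodes BCL-XL, which restrains both effectors. Its present probe set, 1420888_at, had 823.6 and 889.4 in mTert and 838.4 and 843.8 in control, with the controls lying between the mTert arrays. The log2 difference was 0.03 (SE 0.12), and its 95% interval of -0.27 to 0.32 includes -0.21, the smallest difference among the Mcl1 probe sets. Its 3 other probe sets were absent, among them 1420887_a_at with 217.2 and 190.8 in mTert and 252.6 and 363.8 in control.

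Bcl2l2 encodes BCL-W, a guard close in structure to BCL-XL. Its probe set 1423572_at had 623.2 and 733.2 in mTert and 614.2 and 637.4 in control, at 0.11 (SE 0.14, interval -0.24 to 0.46). The higher of the mTert values came from mTert 2, and mTert 1 lay between the controls. The only Bcl2 probe set, 1422938_at, read 286.2 and 337.1 in mTert and 257.7 and 274.4 in control, absent on all 4 arrays with detection p-values between 0.112 and 0.304. Bcl2, the founding member of the family, is therefore given no fold here.

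Bak1 encodes BAK, an effector that forms pores in the outer membrane. Its probe set 1418991_at had 494.6 and 395.4 in mTert and 599.9 and 556.1 in control, with means of 445 ± 70.1 and 578 ± 31.0 (SD, n = 2 each). Both mTert arrays lay below both controls, and most of the distance came from mTert 2. The log2 difference was -0.39 (SE 0.17, interval -0.79 to 0.02), with an unadjusted limma p of 0.06 and an adjusted p of 1.00. It was -0.22 without mTert 2 and -0.55 without mTert 1. The second Bak1 probe set, 1425716_s_at, was absent on all arrays.

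Bbc3 encodes PUMA, a BH3-only protein whose gene is a target of p53. It had 633.4 and 630.0 in mTert and 542.2 and 520.9 in control, with means of 631.7 ± 2.45 and 531.6 ± 15.1 (SD, n = 2 each). The groups did not overlap and each was tight. The log2 difference was 0.25 (SE 0.13, interval -0.07 to 0.57), with an adjusted limma p of 1.00. Limma's SE draws on the spread of all probe sets of similar signal, and so is larger than the spread of these 4 values alone.

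Bid encodes a BH3-only protein that caspase-8 cleaves to link death receptors to mitochondria. Its probe set 1417045_at had 452.0 and 479.7 in mTert and 431.4 and 365.8 in control. The mTert arrays lay above the controls, with control 2 the lowest, and the difference of 0.23 (SE 0.16) was 0.11 without control 2. Both probe sets of Bad, a BH3-only protein held inactive by phosphorylation under growth factor signalling, were absent. The brighter, 1416582_a_at, read 697.5 and 389.8 in mTert and 388.0 and 736.0 in control, so each group held a high and a low array.

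Bcl2l11 encodes BIM, a BH3-only protein made in several splice forms that is restrained by growth factor signalling. Its 5 tested probe sets did not give a single direction. The brightest, 1456005_a_at, had 1668 and 1431 in mTert and 1733 and 1775 in control, a log2 difference of -0.18 (SE 0.12) with both mTert arrays lower. It was -0.07 without mTert 2 and -0.29 without mTert 1. The next, 1435448_at, had 1031 and 951.1 in mTert and 790.2 and 864.2 in control, at 0.26 (SE 0.13) with both mTert arrays higher. Of the others, 1456006_at stood at 0.19 (SE 0.16) without overlap, and 1435449_at at 0.07 (SE 0.15) with overlap. Probe set 1426334_a_at was present in both mTert arrays, with 229 and 193.6, and absent in both controls, with 185.7 and 194.7. It was tested only through its calls in the mTert arrays, and its values overlapped. The log2 difference was 0.15 (SE 0.19, interval -0.33 to 0.62) and 0.03 without mTert 1, and no direction is read from it. Which transcripts each probe set reads was not analysed here.

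**Figure D3:**
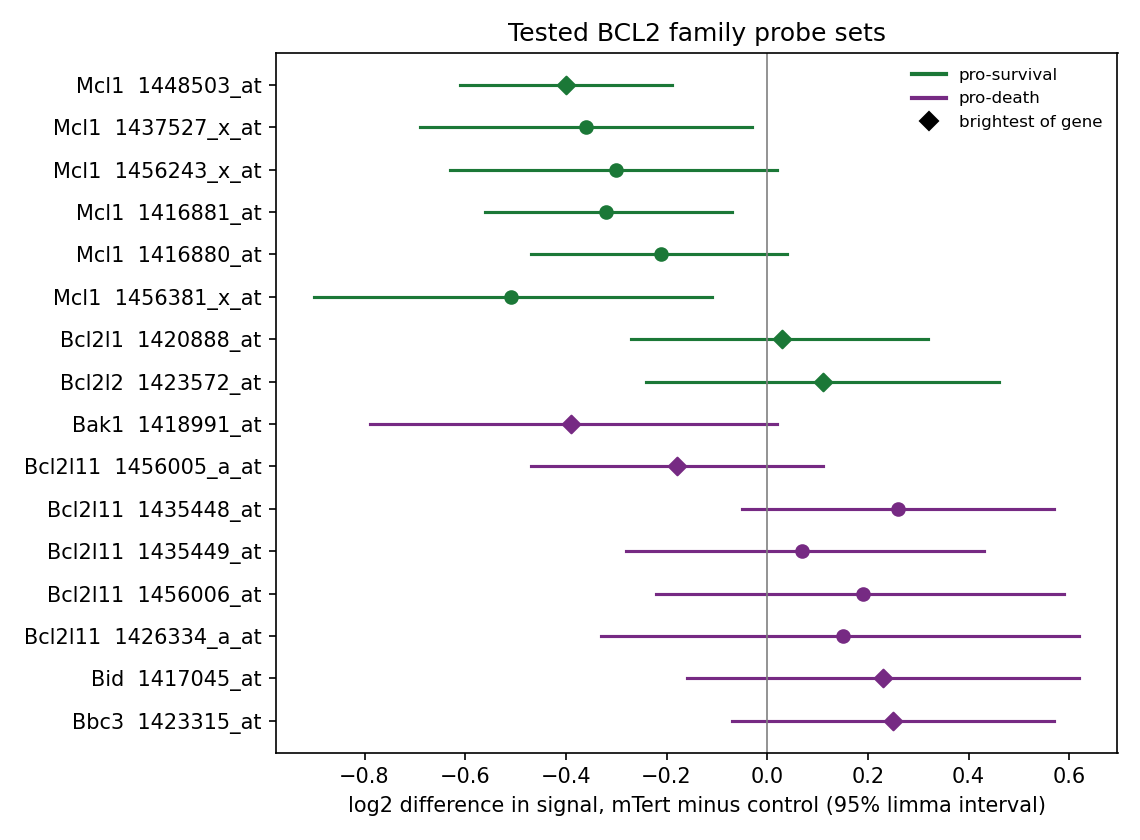
Log2 difference in signal, mTert minus control, of the 16 tested member probe sets (points) with the 95% interval of limma (lines), pro-survival genes in green and pro-death genes in purple, and diamonds for the brightest probe set of each gene. The 6 Mcl1 points lie between -0.51 and -0.21, and the intervals of 1416880_at and 1456243_x_at include 0. The other genes lie on both sides of 0, all with intervals that include it.

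Pro-survival and pro-death members were then set against each other with 1 probe set per gene, the brightest. The 3 pro-survival genes measured had differences of -0.40 to 0.11 and a median of 0.025, and the 4 pro-death genes had -0.39 to 0.25 and a median of 0.023. All 7387 genes had a median of 0.008. The class medians differed by 0.002, less than the 0.113 by which that quantity varied between samples of a group (SD). Each class held members on both sides of 0. Of the 7 genes, 5 had groups that did not overlap, Mcl1, Bak1 and Bcl2l11 lower and Bbc3 and Bid higher, where 25.5% of all genes had none. Taken over the mean of all tested probe sets of a gene, the pro-death median was 0.163, because Bcl2l11 then stood at 0.10. The pro-survival median minus the pro-death median was then -0.138, against 0.002 with the brightest probe sets. The SD above belongs to the brightest probe sets, so it gives no measure of the spread of -0.138. Without 1426334_a_at, present only in mTert, the pro-death median was 0.157 and the difference -0.131. The comparison of the classes thus depends on which probe sets stand for Bcl2l11. It also moved with the filter on calls and with a left-out array.

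Pairs of members were also compared within each array, where the scaling of the array cancels. The log2 signal of Mcl1 minus that of Bbc3, each relative to its mean over the 4 arrays, was -0.27 and -0.39 in mTert, against 0.29 and 0.36 in control. That of Mcl1 minus Bid was -0.21 and -0.42 in mTert, against 0.19 and 0.44 in control. In both pairs Mcl1 was lower relative to its BH3-only partner in each mTert array, with mean differences of -0.65 and -0.63 on the log2 scale. Since Mcl1 was lower and Bbc3 and Bid higher in both mTert arrays, this separation follows from their single differences. It is not a separate result. Mcl1 minus Bcl2l11, by the brightest probe set of each, was -0.16 and -0.06 in mTert, against 0.12 and 0.10 in control, a smaller difference of -0.22. Mcl1 minus Bak1, by contrast, was -0.11 and 0.09 in mTert and -0.05 and 0.07 in control, so the groups overlapped. Bcl2l1 minus Bak1 was -0.01 and 0.42 in mTert and -0.26 and -0.15 in control, a difference of 0.41. Only the pairs named here were compared, not every pair of a guard with a pro-death gene. These are descriptions with no test.

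Between samples numbered 2 and those numbered 1, which differ in macrophage markers, 0 of the 16 tested member probe sets passed limma's adjusted p of 0.05, against 2.85% of all probe sets. At an unadjusted p under 0.05, 1 of them passed, against 10.2% of all probe sets. Their log2 differences, number 2 minus number 1, ran from -0.22 for Bak1 to 0.25 for 1437527_x_at of Mcl1. Bbc3 stood at -0.03 and 1448503_at of Mcl1 at -0.06, each smaller than its difference between mTert and control. The difference between numbers was the larger for Bcl2l1 (0.06 against 0.03), Bcl2l2 (0.14 against 0.11) and 1435449_at of Bcl2l11 (0.10 against 0.07). Each group holds 1 sample of each number, which does not by itself make the macrophage markers equal between groups. Within each number, single markers differed between groups in both directions. Adgre1 was lower in mTert (350.6 against 409.9, and 901.6 against 1057.4). Lyz2 was higher in mTert (874.4 against 736.5, and 4057.7 against 3431.7). Whether macrophage content bears on the comparison of mTert with control was not tested.

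Other cell death genes were read from 5 lists of 77 genes in all, of which 52 had a tested probe set. Of these 52, 0 passed limma's adjusted p of 0.05 and 1, Tnfrsf12a, had an unadjusted p under 0.05, which is 1.92% of them, against 2.1% of all probe sets. They split nearly evenly in sign, 27 higher and 25 lower in mTert, with a median log2 difference of 0.002. The groups did not overlap for 7 higher and 10 lower genes, where 13.8% and 11.7% of all genes did so.

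**Figure D4:**
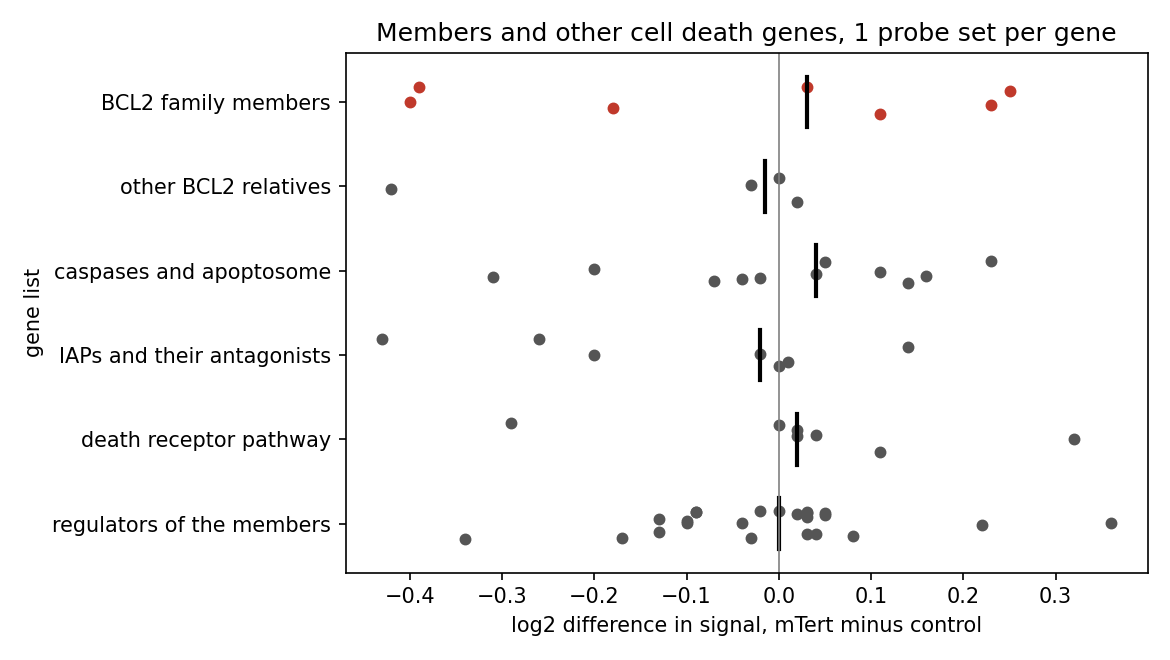
Log2 difference in signal, mTert minus control, of each gene's brightest tested probe set (points) for the 7 members and for 5 lists of other cell death genes, with the median of each list as a vertical bar. Every median lies close to 0, and Mcl1 and Bak1 are the leftmost points of the members.

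Among the other BCL2 relatives 4 of 11 genes on the array were tested, 3 lower and 1 higher in sign, with a median of -0.013. Bcl2l13, a mitochondrial relative, had 300.3 and 283.6 in mTert and 324.4 and 472.5 in control, at -0.42 (SE 0.22). Both mTert arrays were lower, and the distance came mostly from control 2. Bok stood at -0.03 and Bnip3 at 0.02, while Bcl2l10, Bcl2l14, Bmf, Bik, Hrk, Bcl2l15 and Pmaip1, the gene of the BH3-only protein NOXA, had no tested probe set.

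Caspases and the apoptosome, the complex that activates caspase-9, had 11 tested genes, 6 higher and 5 lower, with a median of 0.045. Cycs, the gene of cytochrome c, had 1896 and 1921 in mTert and 2330.1 and 2071 in control, at -0.20 (SE 0.11), but its other probe sets stood at 0.03 and 0.18. Casp6, an executioner caspase, stood at 0.16 (SE 0.14) and Dffa, the inhibitor of the caspase-activated DNase, at 0.23 (SE 0.21). The inhibitors of apoptosis (IAPs) and their antagonists had 7 tested genes, 2 higher and 5 lower, with a median of -0.016. The smallest p belonged to Birc6 at -0.20 (SE 0.14), Septin4 at -0.43 (SE 0.33) and Htra2 at -0.26 (SE 0.24).

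In the death receptor pathway 7 of 12 genes were tested, 6 higher and 1 lower, with a median of 0.019. The lower gene, Tnfrsf12a, encodes the receptor of the cytokine TWEAK. Its probe set 1418572_x_at had 1389.9 and 1355 in mTert and 1709 and 1639.9 in control, at -0.29 (SE 0.10, unadjusted limma p of 0.033, adjusted p of 1.00). Both mTert arrays lay below both controls, and its second probe set stood at -0.52. Tradd, an adaptor of TNF receptor 1, stood at 0.32 (SE 0.19) and Tnfrsf21 at 0.11 (SE 0.25). Fas, Fasl, Tnfrsf10b, Tnfsf10 and Traf2 had no tested probe set.

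Genes known to regulate the members had 23 tested genes, 12 higher and 11 lower, with a median of 0.003. Bag3, a co-chaperone of HSP70 that has been tied to the stability of MCL1 in human cells, had 945.1 and 785.7 in mTert and 1092 and 1082 in control, at -0.34 (SE 0.14). Btrc, a subunit of a ubiquitin ligase that targets phosphorylated proteins including BIM, had 353.8 and 352.4 in mTert and 291.6 and 258.3 in control, at 0.36 (SE 0.16). Ddit3, the stress factor CHOP that can induce BIM and PUMA, stood at 0.22 (SE 0.12). In each of these 3 the groups did not overlap, and in limma the adjusted p was 1.00. They were named for the smallest p of the list, which favours genes without overlap. Over the 23 genes, 3 higher and 5 lower had no overlap, where 25.5% of all genes had none.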

How the data were processed

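Each deposited array table holds, per the file headers, a linear intensity, a call (present, marginal or absent) and a detection p-value per probe set. The tools that made them were not given in the sources used here. A deposited series table held the same intensities (largest difference 0). Signals of the 22626 probe sets that are not controls were scaled to a common mean after trimming 2% at each end and taken to log2, with the single signal at 0 (1 value) raised to its array's lowest present signal. Arrays held trimmed means between 498.2 and 498.5 as deposited. The 12396 probe sets present on at least 2 arrays were fitted with limma 3.58.1 in R 4.3.3 (lmFit and trended eBayes, 4.13 prior degrees of freedom, no replicate term), with Benjamini-Hochberg adjustment over all of them at 0.05. The step was also run on simulated data with independent noise and no difference between sample numbers. The recovery required there was of changes far larger than those of the members. It therefore does not show that changes of the members' size would be called. GEO's platform annotation gave 1 symbol to 20380 probe sets, several to 691 and none to 1555, and 0 symbols needed updating. Named were all members, the 3 genes of each list with the smallest limma p, the 5 genes nearest to the member with the smallest p, and Tert. Members and lists were chosen with earlier results of these data known. Alternatives were quantile normalization, other filters on calls, floored signals, no trend, a replicate block, the mean of a gene's probe sets, and leaving out each array. The number of arrays limits the precision. Sequences are RefSeq's.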

Additional observations from a re-analysis of the deposited data

How the results depend on the processing

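Quantile normalization, no filter on calls, probe sets present on all arrays, floored signals, no intensity trend and each left-out array gave 0 called probe sets in limma over all probe sets, and 0 among the members, as did the fit reported. The fit with a replicate block had 18 calls in limma over all probe sets, 3 higher and 15 lower, and 0 of the 16 members, whose smallest adjusted p was then 0.134, for 1448503_at of Mcl1. At an unadjusted p under 0.05 that fit had 6 members, 5 probe sets of Mcl1 and 1 of Bak1, against 4% of all probe sets. By their titles, samples of the 2 groups share only a number. The arrays of a number were nonetheless alike in macrophage markers, and limma called 2.85% of all probe sets between numbers. The differences between numbers 1 and 2 in the 2 groups correlated at 0.373 across probe sets. The p-values and intervals of the fit reported come without a term for number, so their spread includes any difference between numbers. The log2 differences themselves can move only with quantile normalization or a left-out array. In these 5 settings the 6 Mcl1 probe sets stayed negative, from -0.67 to -0.16, as did Bak1, from -0.55 to -0.22, and Bbc3 and Bid stayed positive, from 0.22 to 0.28 and from 0.11 to 0.35. Without mTert 2, Bcl2l1 stood at -0.03, Bcl2l2 at -0.01 and 1435449_at of Bcl2l11 at -0.01, the opposite sign to the fit reported. Their highest values over the refits were 0.08, 0.23 and 0.16. With no filter on calls, which adds Bcl2 and Bad, the pro-survival median was 0.068 and the pro-death median -0.035. The pro-survival minus the pro-death median was then 0.104. With the mean of a gene's probe sets the pro-death median was 0.163, and the pro-survival median minus it was -0.138. Without 1426334_a_at, left out after seeing the data, these were 0.157 and -0.131. With 1 array left out the pro-survival median ran from -0.030 to 0.081, the pro-death median from -0.028 to 0.057, and their difference from -0.087 to 0.105. Each such fit leaves a lone array in a group, assumed to vary like the other group, and holds part of the difference between numbers. Bcl2, Bad and the 11 untested member probe sets are limited by signal over background.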
